A study of Homo sapiens with 26 samples.

Results

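The transcripts of 8 genes of the epidermal growth factor (EGF) receptor pathway were followed through every library of the series, namely the ligands AREG, EREG, HBEGF and TGFA, the receptor EGFR, and the feedback genes ERRFI1, SPRY2 and SPRY4. They were chosen by name, as 8 of the 63086 genes in the count tables. The cells were HCT116, a human colorectal carcinoma line, with Tet-OsTIR1-PURO and with IGF2BP2 and IGF2BP3 knocked out, isolated as a single clone. Into this clone the study had brought mCherry-IGF2BP1 under an hPGK promoter by lentivirus, and 4 populations had been sorted through a narrow mCherry gate: wild-type (WT), the phosphomimetic mutants S181E and Y396E in the disordered linkers, and RQ, in which arginines of a linker were changed to glutamine. Each population received PBS (control) or 500 µM sodium arsenite for 2 h in 3 libraries a group, and parental HCT116 cells without the transgene gave 1 control and 1 arsenite library. Poly(A) RNA came from the cleared lysate that also served as the input of an immunoprecipitation. The dishes of a group were plated and grown separately, so each p-value measures the spread between dishes of 1 sorted population and not between independent clones.

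The EGF receptor is a tyrosine kinase at the cell surface that signals through RAS and ERK. Its ligands are made as membrane-anchored precursors, and metalloproteases such as ADAM17 release their soluble forms. Amphiregulin (AREG), epiregulin (EREG), heparin-binding EGF-like growth factor (HBEGF) and transforming growth factor alpha (TGFA) are the ligands that epithelial and colorectal tumour cells typically make for themselves. ERRFI1 (also MIG6) binds the active kinase domain of the receptor and blocks it, and the Sprouty proteins SPRY2 and SPRY4 restrain the step from the receptor to RAS and ERK. Transcripts of several of these genes are themselves raised by ERK signalling, which closes a feedback loop.

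AREG and EREG lie next to each other on chromosome 4, on the plus strand in hg38, with 56386 bases and no other protein-coding gene between them. AREG (ENSG00000109321.11) spans 74445136 to 74455005 and EREG (ENSG00000124882.4) spans 74365145 to 74388749. The ligand genes EPGN and BTC flank the pair. HBEGF (ENSG00000113070.8) is on chromosome 5 at 140332843 to 140346603 on the minus strand. Of these 3 ligands, AREG and EREG fell with arsenite in every population and HBEGF did not. For each, the 250 bases before the RefSeq transcription start (GRCh38.p14) are shown 5′ to 3′ on the strand of the gene. Capitals mark matches on either strand to TGACG, the shorter form of the cyclic AMP response element. They also mark TATAAA, a form of the TATA box, and GGGCGG, the GC box.
AREG (chr4:74444886-74445135, plus strand): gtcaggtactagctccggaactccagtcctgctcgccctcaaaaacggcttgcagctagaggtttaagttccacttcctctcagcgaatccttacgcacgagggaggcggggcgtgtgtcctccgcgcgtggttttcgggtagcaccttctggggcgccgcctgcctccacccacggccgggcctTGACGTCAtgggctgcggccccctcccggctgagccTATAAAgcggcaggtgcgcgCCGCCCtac
EREG (chr4:74364895-74365144, plus strand): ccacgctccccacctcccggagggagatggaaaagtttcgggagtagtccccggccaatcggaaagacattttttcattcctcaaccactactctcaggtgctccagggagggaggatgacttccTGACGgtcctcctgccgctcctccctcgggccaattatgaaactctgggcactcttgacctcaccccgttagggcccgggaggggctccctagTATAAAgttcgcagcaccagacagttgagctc
HBEGF (chr5:140346604-140346853, minus strand): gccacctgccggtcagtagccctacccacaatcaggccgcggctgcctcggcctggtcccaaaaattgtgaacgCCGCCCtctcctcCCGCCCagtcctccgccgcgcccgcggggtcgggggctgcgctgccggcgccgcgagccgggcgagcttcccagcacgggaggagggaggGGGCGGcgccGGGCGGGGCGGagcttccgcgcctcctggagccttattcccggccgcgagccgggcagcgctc

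The AREG window holds the palindrome TGACGTCA, known as the cyclic AMP response element, from 65 to 58 bases before the start, and 578 of 35116 RefSeq promoter windows of that length (1.65%) hold it on either strand. The shorter TGACG overlaps the palindrome in AREG on both strands and stands once in EREG, from 125 bases before the start. It occurred in 5 of the 8 members (AREG, EREG, TGFA, SPRY2 and SPRY4) and in 21.2% of all windows. The SPRY4 window stands before a RefSeq start that is 774 bases from the start of the counted gene, and so lies inside its span. TATAAA was found 29 bases before the start of AREG and 32 before that of EREG, in none of the other 6 members, and in 10.7% of all windows. Only this exact string was sought, so other forms of the TATA box were not counted. The ERRFI1 window, for one, holds TATATATA, which this search does not match. HBEGF held 5 copies of GGGCGG, of which a pair shares 1 base, and this motif was found in every member but EREG and in 42.6% of all windows. Neither the AP-1 element TGACTCA (4.2% of windows) nor the CArG box (1.16%) was in the window of any member. Such matches describe the letters alone, and those that are missing say nothing about a factor. TGFA, ERRFI1 and SPRY4 also fell with arsenite in every population and held no TATAAA, and ERRFI1 held no TGACG. A link between a motif and a response was not tested.

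The libraries held 22508145 to 50834401 counts. IGF2BP1, which the parental cells carried at 0.347 CPM in control and 0.645 CPM with arsenite, was at 10.6 to 20.4 CPM in the control and 27.9 to 48.0 CPM in the arsenite libraries with the transgene, where CPM are counts scaled to a common library size by TMM. Among the control groups it was higher than in WT in S181E (log2 fold change 0.63) and in Y396E (0.45), and after arsenite in S181E (0.57), Y396E (0.57) and RQ (0.69). The part of these differences in the results was not tested. IGF2BP2 and IGF2BP3 transcripts stayed at 62.3 to 91.3 and 109 to 166 CPM in the knockout libraries, so their level in poly(A) RNA does not check the knockouts. The epithelial markers EPCAM, CDH1, KRT8, KRT18 and CDX2 were present in all 26 libraries and VIL1 was at most at 0.228 CPM. Of 5 markers of other cell types, 4 stayed at or under 0.208 CPM and COL1A1 reached 11.5 CPM, with a summed level of 6.55 to 11.6 CPM for the list. The third Y396E arsenite library stood apart, with counts for 13897 genes against at least 20850 in each of the other 23 libraries with the transgene. Transcripts of the mitochondrial genome took 21.1 to 27.9% of counts in WT and RQ control libraries, 11.66 to 17.15% in S181E and Y396E control libraries and 7.55 to 13.5% in all arsenite libraries with the transgene, so this share moved with the groups. Each main result is therefore given with scaling by library totals alone where that scaling changes a call. Such a total is the sum of counts over the genes in the fit, not over all genes. The part of the mitochondrial share in the results was not otherwise tested.

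**Figure D1:**
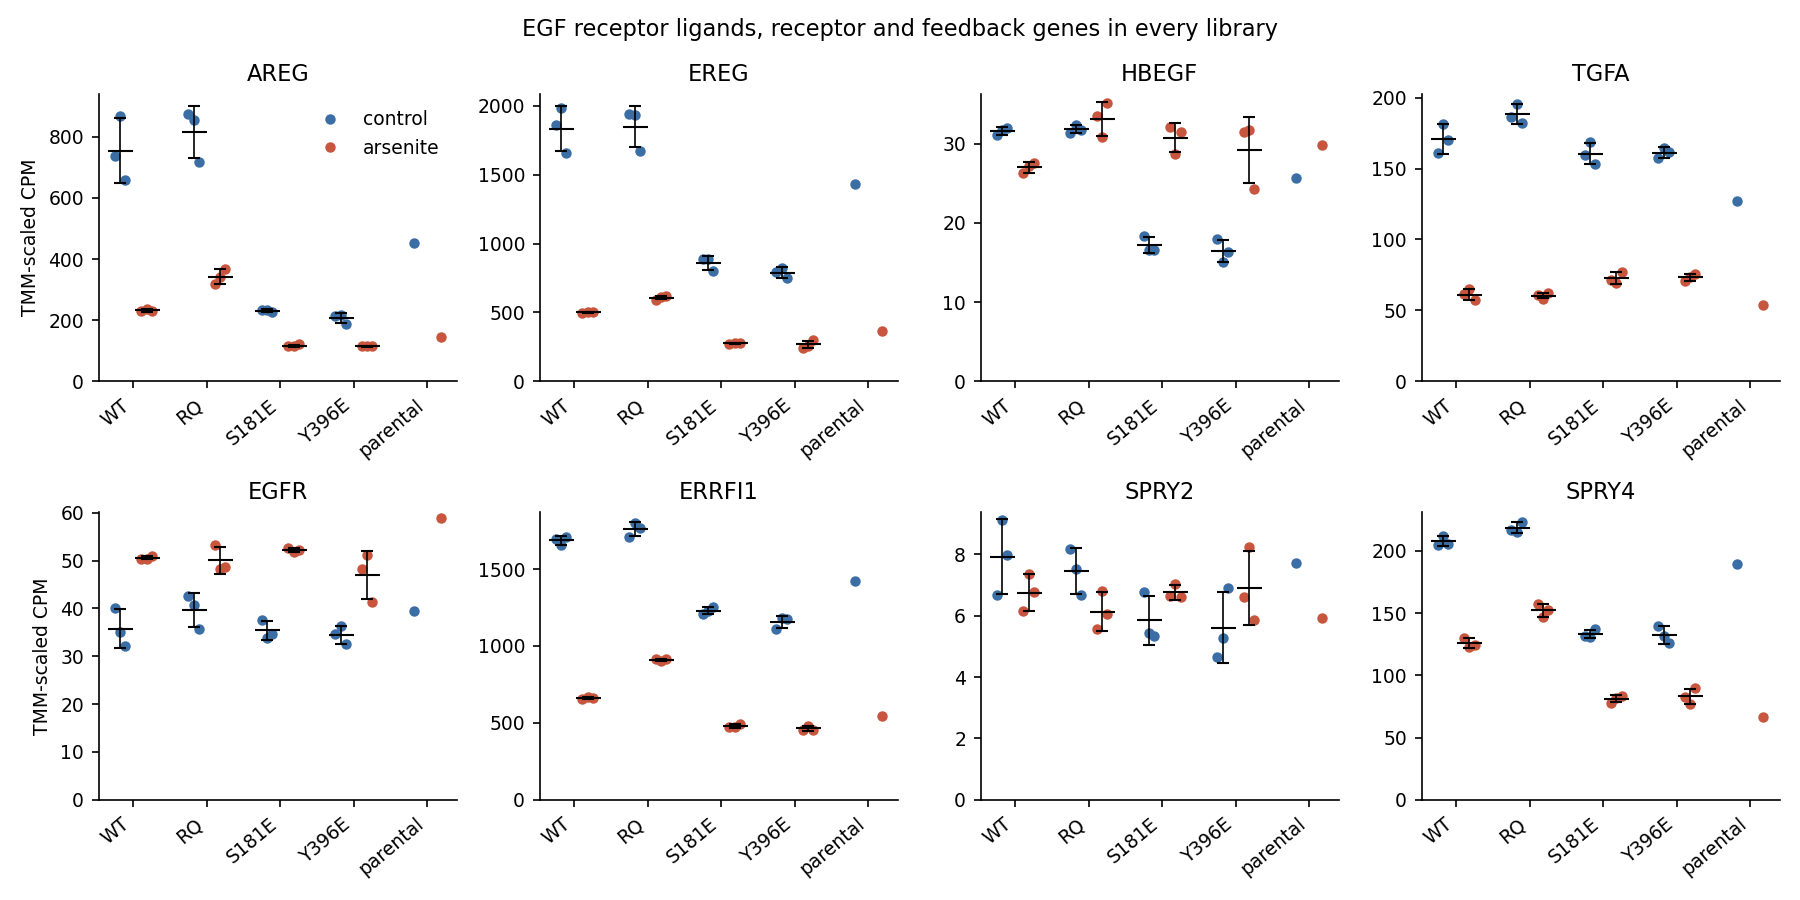
Level of each gene in every library, as TMM-scaled CPM from 0 on the vertical axis, by population on the horizontal axis. Blue points are control and red points arsenite libraries; the black bar and whiskers give the mean and SD of 3 libraries, and parental cells have 1 library each. AREG, EREG, ERRFI1 and SPRY4 are lower in S181E and Y396E than in WT and RQ, and HBEGF rises with arsenite in S181E and Y396E.

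Per unit of transcript length, the 8 genes spanned a wide range in WT control cells. On the TPM scale (counts divided by the exon length and brought to a common total in each library), AREG stood at 883 ± 39.3 (SD, n = 3), ERRFI1 at 590 ± 64.3 and EREG at 576 ± 20.9. SPRY4 (60.9 ± 4.67) and TGFA (53.9 ± 3.74) were about an order of magnitude lower. HBEGF reached 19.5 ± 1.87 TPM, EGFR 4.50 ± 0.606 TPM and SPRY2 3.57 ± 0.426 TPM, so the receptor and SPRY2 transcripts were the rarest of the group. Behind these levels stood 2621 to 26032 counts a library for AREG and 122 to 422 for SPRY2.

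With arsenite, 5 of the 7 genes that could be tested fell in every population: AREG, EREG, TGFA, ERRFI1 and SPRY4. EGFR rose in all 4. HBEGF rose in S181E and Y396E and was not called in WT and RQ. A gene was called where the edgeR quasi-likelihood test over 9099 protein-coding genes gave an adjusted p below 0.05 and a fold above 1.2. By this rule 6 of 7 members were called in WT and in RQ and all 7 in each phosphomimetic mutant. Arsenite moved most transcripts, since of all tested genes 72.2% were called in WT, 72.9% in RQ, and 65.3% and 65.8% in S181E and Y396E. The share called lower was 35.9%, 35.8%, 33.3% and 32.9% in the same order. In either direction, 6 or 7 of 7 is close to that background for so few genes and is not read as a result about the members. The 5 of 7 called lower stand beside a smaller share, but the members were chosen with earlier results known. Neither count was tested against the background. The median of the 7 members was -1.35 on the log2 scale in WT and -0.95 in RQ, and -0.99 and -0.85 in the phosphomimetic mutants S181E and Y396E, beside -0.01 to -0.03 over all genes. As everywhere in bulk RNA, fewer expressing cells and less RNA a cell cannot be told apart.

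AREG, which encodes amphiregulin, read 737, 867 and 660 CPM in the WT control libraries and 229, 236 and 231 CPM after arsenite. Its level thus fell by 1.70 ± 0.08 on the log2 scale (SE, 3.25-fold, edgeR adjusted p = 7.9e-16), and the groups did not overlap. In RQ it went from 875, 856 and 718 CPM to 320, 340 and 367 CPM. This was a log2 fold change of -1.25 ± 0.08. In S181E the control libraries started much lower, at 234, 234 and 226 CPM, and arsenite brought them to 114, 114 and 121 CPM, a change of -0.99 ± 0.08. Y396E resembled S181E, with 215, 218 and 188 CPM before and 114, 116 and 115 CPM after arsenite, or -0.85 ± 0.08. WT cells after arsenite and unstressed S181E cells therefore carried overlapping levels of AREG in CPM. In TPM, without TMM scaling, they were apart, at 386.5, 396.4 and 403 in WT arsenite and 348.1, 354.5 and 358.8 in S181E control libraries.

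EREG (epiregulin) was the ligand with the largest change in WT. It read 1862, 1983 and 1656 CPM in WT control and 493, 505 and 502 CPM in WT arsenite libraries, and fell by 1.88 ± 0.07 on the log2 scale (edgeR adjusted p = 1.36e-17). It ranked 33 from the lowest log2 fold change of the 9099 tested genes in this comparison. RQ libraries held 1940, 1934 and 1674 CPM before and 593, 613 and 617 CPM after arsenite. The S181E libraries dropped from 891, 891 and 799 CPM to 273, 276 and 281 CPM, and those of Y396E from 796, 824 and 749 CPM to 245, 259 and 299 CPM. The log2 fold change of EREG was -1.61 ± 0.07 for RQ and lay close by in S181E (-1.64 ± 0.07) and Y396E (-1.56 ± 0.07), and in none of these populations did control and arsenite libraries overlap.

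TGFA, on chromosome 2 at 70447284 to 70553826 (ENSG00000163235.16, minus strand), encodes transforming growth factor alpha. It read 160.8, 181.4 and 170.2 CPM in WT control and 61.6, 64.8 and 57.1 CPM in WT arsenite libraries, a change of -1.48 ± 0.06 (edgeR adjusted p = 1.75e-17). In RQ its level changed from 187, 196 and 182 CPM to 61.0, 58.2 and 62.3 CPM, or -1.64 ± 0.06. The falls in S181E, from 160, 169 and 153 CPM to 71.6, 69.3 and 77.3 CPM, and in Y396E, from 157, 165 and 162 CPM to 71.0, 73.6 and 75.6 CPM, were each -1.14 ± 0.06. Unlike AREG and EREG, TGFA thus started from similar levels in WT, S181E and Y396E control cells.

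HBEGF encodes a ligand that also binds heparin and ERBB4. SPRY2 was called in no population, and HBEGF was the only member whose arsenite response was called in some populations and not in others. In WT it read 31.0, 31.8 and 32.0 CPM in control and 26.3, 27.1 and 27.6 CPM in arsenite libraries, and the difference of -0.23 ± 0.09 (edgeR adjusted p = 0.0183) stayed under the fold threshold although the groups did not overlap. RQ libraries read 31.3, 32.3 and 31.8 CPM before and 33.5, 30.9 and 35.1 CPM after arsenite (0.06 ± 0.09, adjusted p = 0.508). In S181E it rose from 18.4, 16.6 and 16.6 CPM to 32.2, 28.7 and 31.4 CPM, by 0.84 ± 0.09 on the log2 scale (edgeR adjusted p = 5.38e-09). In Y396E it rose from 18.0, 15.1 and 16.3 CPM to 31.5, 31.7 and 24.3 CPM, by 0.82 ± 0.09 (edgeR adjusted p = 7.44e-09), and by 0.94 without the library that stood apart, which is the lowest of the 3. The rise brought HBEGF in these cells up to the level that WT and RQ cells held with and without arsenite. With scaling by library totals alone the WT difference was -0.07 and that of RQ 0.23, and neither was called. The direction in WT turned with the scaling, since on the TPM scale, without TMM, the WT control libraries read 19.6, 17.6 and 21.4 and the arsenite libraries 23.2, 23.9 and 25.2, a log2 difference of 0.31 where the median of all genes moved by 0.52. In RQ the TPM of all arsenite libraries lay above that of all control libraries, by 0.61 on the log2 scale where the median of all genes moved by 0.54.

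EGFR (ENSG00000146648.21, chromosome 7, 55019017 to 55211628, plus strand) rose with arsenite in every population. Its transcript read 40.1, 35.0 and 32.2 CPM in WT control and 50.4, 50.4 and 50.9 CPM in WT arsenite libraries, a rise of 0.50 ± 0.08 on the log2 scale (1.41-fold, edgeR adjusted p = 4.99e-06). The rise was 0.56 ± 0.08 for S181E, 0.45 ± 0.08 for Y396E and 0.33 ± 0.08 for RQ. Control and arsenite libraries did not overlap in any of the 4 populations. In RQ, where control libraries read 42.6, 40.7 and 35.7 CPM and arsenite libraries 53.3, 48.2 and 48.6 CPM, the call was lost without the third control library (0.26, edgeR adjusted p = 0.00852).

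Among the feedback genes, ERRFI1 (ENSG00000116285.13, chromosome 1, 8004404 to 8026309, minus strand) was abundant and its replicates were tight. It read 1696, 1654 and 1709 CPM in WT control and 657, 667 and 662 CPM in WT arsenite libraries, and fell by 1.35 ± 0.04 on the log2 scale (2.55-fold, edgeR adjusted p = 4.73e-20). S181E libraries went from 1210, 1226 and 1253 CPM to 474, 476 and 496 CPM, again -1.35 ± 0.04, and those of Y396E from 1111, 1179 and 1174 CPM to 456, 482 and 456 CPM, or -1.31 ± 0.04. In RQ the libraries read 1709, 1799 and 1764 CPM before and 913, 905 and 917 CPM after arsenite, a smaller fall of -0.95 ± 0.04 whose difference from WT is tested with the interactions.

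SPRY4 (ENSG00000187678.10, chromosome 5, 142310427 to 142325021, minus strand), a Sprouty inhibitor of RAS and ERK signalling, read 205, 212 and 206 CPM in WT control and 130, 123 and 124 CPM in WT arsenite libraries. This was a log2 fold change of -0.72 ± 0.05 (edgeR adjusted p = 1.59e-12). The value was -0.71 ± 0.05 for S181E, -0.67 ± 0.05 for Y396E and -0.52 ± 0.05 for RQ, and the CPM of the treatments did not overlap in any population. On the TPM scale the RQ libraries of SPRY4 did overlap, at 58.5, 55.5 and 66.2 in control and 62.8, 57.7 and 62.5 with arsenite, a log2 difference of 0.03 where the median of all genes moved by 0.54. SPRY2 (ENSG00000136158.12, chromosome 13, 80335976 to 80341126, minus strand) did not pass the filter of more than 10 CPM in at least 12 libraries. In the fit of 12048 genes with more than 1 CPM in at least 3 libraries its arsenite log2 fold change was -0.24 ± 0.16 for WT and -0.29 ± 0.16 for RQ, against 0.18 ± 0.16 and 0.27 ± 0.16 for S181E and Y396E. None of these was called, control and arsenite libraries overlapped in CPM in each population, and its 122 to 422 counts a library leave wide errors. On the TPM scale all its arsenite libraries lay above all its control libraries in each population. The log2 differences were 0.31 for WT, 0.45 for S181E, 0.57 for Y396E and 0.27 for RQ, where the median of all genes moved by 0.52, 0.21, 0.23 and 0.54. In Y396E SPRY2 was called in the wider fit without the third control library (0.46, edgeR adjusted p = 0.0227) or the third arsenite library (0.39, edgeR adjusted p = 0.0182). In RQ it was called where only the groups compared were fitted (-0.30, edgeR adjusted p = 0.0321).

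**Figure D2:**
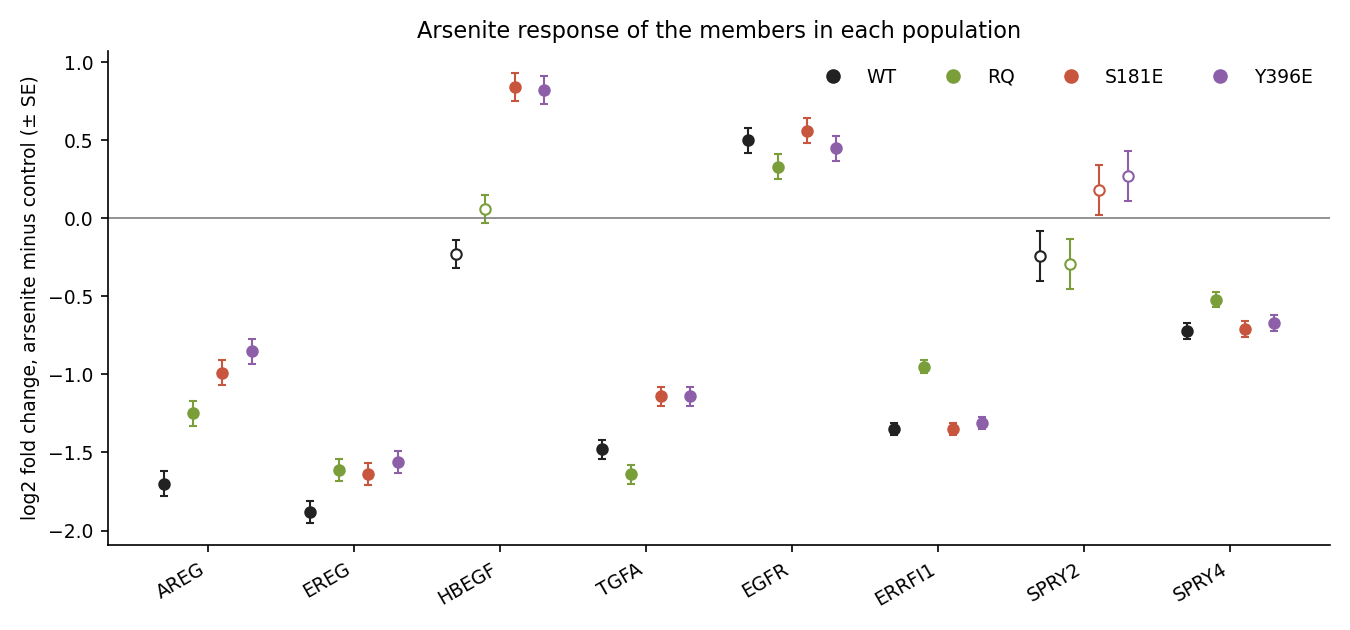
Arsenite response of each gene as the log2 fold change of arsenite minus control on the vertical axis, with the SE as whiskers, for the 4 populations. Filled points were called and open points were not; SPRY2 comes from the fit with the wider filter. AREG falls most in WT (-1.70) and least in Y396E (-0.85), and HBEGF lies at -0.23 in WT and 0.84 in S181E.

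Parental HCT116 cells, with 1 library a treatment and so no test, gave values of the same sign as WT for 7 of the 8 members. AREG read 451 CPM in control and 146 CPM with arsenite, EREG 1436 and 363 CPM, TGFA 127 and 53.6 CPM. ERRFI1 read 1419 and 547 CPM and SPRY4 190 and 66.8 CPM, the latter a log2 difference of -1.51. EGFR was at 39.5 CPM in control and 58.8 CPM with arsenite, and SPRY2 at 7.71 and 5.92 CPM. HBEGF, at 25.7 and 29.8 CPM, differed by 0.22 on the log2 scale where WT differed by -0.23.

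Without stress, the phosphomimetic mutants carried less of most of these transcripts than WT. In S181E and in Y396E, 5 of 7 tested members were called lower (AREG, EREG, HBEGF, ERRFI1 and SPRY4) and none higher, where 15.4% and 14.2% of all tested genes were called lower and 31.1% and 28.6% were called in either direction. AREG had a log2 fold change of -1.71 ± 0.08 in S181E (3.26-fold lower, edgeR adjusted p = 1.92e-14), and in Y396E it was -1.87 ± 0.08 (3.65-fold lower, edgeR adjusted p = 6.38e-15). By log2 fold change it ranked 7 from the lowest of 9099 tested genes in S181E and 4 in Y396E. EREG was at -1.09 ± 0.07 in S181E (edgeR adjusted p = 6.59e-12) and -1.22 ± 0.07 in Y396E (edgeR adjusted p = 1.05e-12). HBEGF was at -0.88 ± 0.09 (edgeR adjusted p = 2.18e-08) and -0.94 ± 0.09 (edgeR adjusted p = 8.71e-09). For each of these ligands all 6 mutant libraries lay below all 3 WT libraries.

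The same comparison gave smaller differences for the feedback genes. ERRFI1 was at -0.46 ± 0.04 in S181E (edgeR adjusted p = 5.96e-10) and -0.55 ± 0.04 in Y396E (edgeR adjusted p = 2.42e-11), and SPRY4 at -0.64 ± 0.05 and -0.65 ± 0.05, with control libraries of 132, 131 and 137 CPM in S181E and 140, 132 and 126 CPM in Y396E. Neither overlapped with WT in CPM. On the TPM scale, where the median of all genes was 0.40 higher in S181E and 0.33 higher in Y396E, ERRFI1 was at -0.08 and -0.23 and overlapped with WT. SPRY2, in the wider fit, where 27.5% and 25.4% of genes were called, was lower at -0.42 ± 0.16 (edgeR adjusted p = 0.0385) and -0.49 ± 0.16 (edgeR adjusted p = 0.0191), but its libraries overlapped, at 6.69, 9.11 and 7.98 CPM in WT, 6.76, 5.45 and 5.34 CPM in S181E and 4.66, 5.27 and 6.91 CPM in Y396E. The S181E call was lost without the second or the third WT control library (-0.32 and -0.43) or the second or the third S181E control library (-0.38 and -0.36). That of Y396E was lost without the second WT control library (-0.38) or the first or second Y396E control library (-0.37 and -0.45), and library totals alone ended both (-0.27 and -0.36).

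TGFA and EGFR were not called in either mutant without stress. TGFA differed from WT by -0.09 ± 0.05 in S181E and -0.08 ± 0.05 in Y396E, and EGFR by -0.02 ± 0.08 and -0.06 ± 0.08, with overlapping libraries. With scaling by library totals alone these became 0.07 and 0.05 for TGFA and 0.14 and 0.07 for EGFR, still not called. That scaling shifted the median of all genes from 0.02 to 0.18 in S181E and from 0.01 to 0.14 in Y396E, and the share of calls that were higher from 50.4% to 83.6% and from 50.5% to 81.1%. Under it AREG was at -1.54 and -1.73, EREG at -0.93 and -1.08, HBEGF at -0.72 and -0.81, ERRFI1 at -0.30 and -0.42 and SPRY4 at -0.48 and -0.52, each still called lower.

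**Figure D3:**
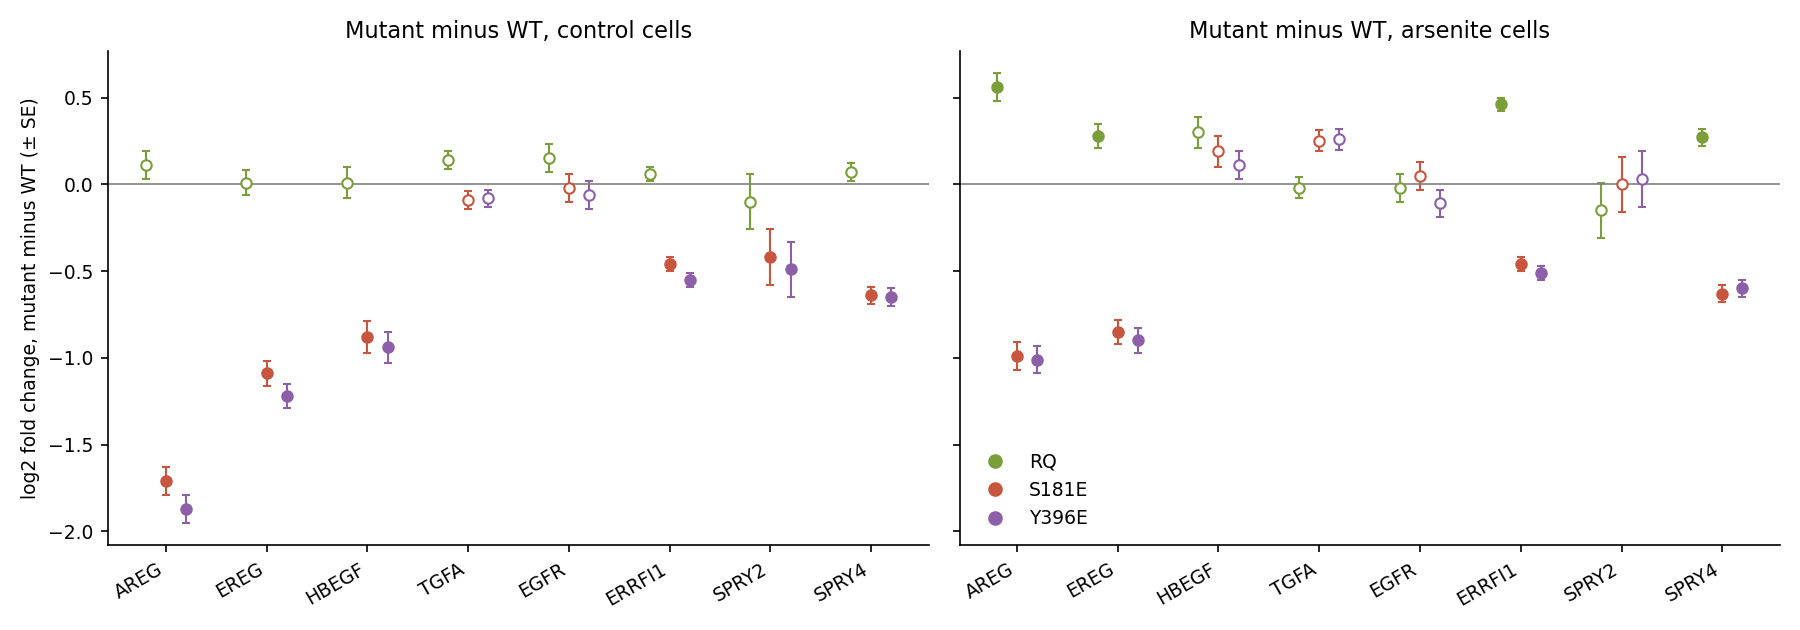
Each mutant minus WT as the log2 fold change on the vertical axis, with the SE as whiskers, in control cells (left) and after arsenite (right). Filled points were called and open points were not; SPRY2 comes from the fit with the wider filter. AREG lies at -1.71 and -1.87 in S181E and Y396E control cells and at -0.99 and -1.01 after arsenite, and RQ points lie above 0 after arsenite for AREG (0.56) and ERRFI1 (0.46).

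After arsenite the phosphomimetic mutants still held less AREG, EREG, ERRFI1 and SPRY4 than WT, and these 4 of 7 tested members were called lower in each mutant. Over all tested genes 13.7% were called in S181E and 21.7% in Y396E, and 8.42% and 11.9% were called lower. AREG was at -0.99 ± 0.08 in S181E (edgeR adjusted p = 6.14e-10) and -1.01 ± 0.08 in Y396E (edgeR adjusted p = 3.3e-10), and EREG at -0.85 ± 0.07 and -0.90 ± 0.07. ERRFI1 was at -0.46 ± 0.04 and -0.51 ± 0.04, close to its values without stress, and SPRY4 at -0.63 ± 0.05 and -0.60 ± 0.05. HBEGF was not called, with 0.19 ± 0.09 in S181E (edgeR adjusted p = 0.118) and 0.11 ± 0.08 in Y396E (edgeR adjusted p = 0.316). TGFA was higher by 0.25 ± 0.06 in S181E (edgeR adjusted p = 0.00182) and by 0.26 ± 0.06 in Y396E (edgeR adjusted p = 0.000815) with no overlap of libraries. It was not called because the folds fell just short of 1.2, and it was called with library totals alone (0.30 and 0.29). EGFR was at 0.05 ± 0.08 and -0.11 ± 0.08, and SPRY2 at 0.00 ± 0.16 and 0.03 ± 0.16.

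Whether the arsenite response itself differed from that of WT was tested as an interaction in the same fit. In S181E, 3 of 7 members were called (AREG, HBEGF and TGFA), each with a more positive response, where 16.4% of all tested genes were called and 6.98% in that direction. In Y396E, 4 of 7 were called (the same 3 and EREG), where 21.5% were called and 10.3% in that direction. HBEGF had the largest difference, 1.07 ± 0.12 on the log2 scale in S181E (edgeR adjusted p = 4.52e-06), and ranked 10 from the highest of the 9099 tested genes. It was 1.05 ± 0.12 in Y396E (edgeR adjusted p = 5.06e-06). AREG followed with 0.71 ± 0.11 (edgeR adjusted p = 0.000191) and 0.86 ± 0.11 (edgeR adjusted p = 1.59e-05), so that its fall with arsenite was smaller in the mutants, which began from lower levels. TGFA gave 0.34 ± 0.08 in each mutant (edgeR adjusted p = 0.00521 and 0.00327), under the fold threshold with library totals alone (0.23 and 0.24). EREG gave 0.24 ± 0.10 in S181E (edgeR adjusted p = 0.0846) and 0.32 ± 0.10 in Y396E (edgeR adjusted p = 0.0205), and the latter call was lost without the second WT control, the third Y396E control or the third Y396E arsenite library (0.26, 0.28 and 0.23). It was also lost with library totals alone (0.21, edgeR adjusted p = 0.0696) and where only the groups compared were fitted (0.32, edgeR adjusted p = 0.0675). In S181E it was called without the third WT control library (0.31, edgeR adjusted p = 0.0218).

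ERRFI1, SPRY4 and EGFR gave no called difference of response in the phosphomimetic mutants. The interaction was 0.00 ± 0.05 and 0.03 ± 0.05 for ERRFI1, 0.01 ± 0.07 and 0.05 ± 0.07 for SPRY4, and 0.06 ± 0.11 and -0.05 ± 0.11 for EGFR. SPRY2 gave 0.42 ± 0.23 and 0.52 ± 0.22 in the wider fit and was not called. In Y396E it was called without the third Y396E control library (0.70) or the third Y396E arsenite library (0.62). The WT libraries enter both the mutant comparisons and these interactions, so the values are not independent of each other.

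RQ cells did not differ from WT in any of the 7 members without stress by the edgeR test, where 1.43% of all tested genes were called. At an unadjusted p under 0.05 only TGFA passed (0.14 ± 0.05, edgeR adjusted p = 0.22), and DESeq2 called none either. AREG was at 0.11 ± 0.08, EREG at 0.01 ± 0.07, HBEGF at 0.01 ± 0.09 and ERRFI1 at 0.06 ± 0.04. After arsenite, 4 of 7 members were called higher in RQ than in WT, where 1.36% of all tested genes were called higher and 1.52% in either direction. AREG was higher by 0.56 ± 0.08 (1.48-fold, edgeR adjusted p = 3.73e-05), with 320, 340 and 367 CPM against 229, 236 and 231 CPM. ERRFI1 was higher by 0.46 ± 0.04 (1.38-fold, edgeR adjusted p = 9.88e-09). EREG (0.28 ± 0.07, edgeR adjusted p = 0.0251) and SPRY4 (0.27 ± 0.05, edgeR adjusted p = 0.00162, with 157, 147 and 152 CPM in RQ) were nearer the threshold.

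These smaller RQ calls lay near the thresholds, so that leaving out a library or changing the scaling could end them. For EREG and SPRY4 all RQ arsenite libraries lay above all WT arsenite libraries in CPM, and the estimates moved little. EREG was no longer called without any of the 3 WT arsenite libraries in turn (0.27, 0.29 and 0.28) or without the second or the third RQ arsenite library (0.28 and 0.27), or with library totals alone (0.24, edgeR adjusted p = 0.0544). SPRY4 was no longer called without the first RQ arsenite library (0.25) or the second WT arsenite library (0.26), or with library totals alone (0.23, edgeR adjusted p = 0.0509). HBEGF, at 0.30 ± 0.09 (edgeR adjusted p = 0.0759), was not called. It became called with DESeq2 (0.29, adjusted p = 0.042) or where only the groups compared were fitted (0.29, edgeR adjusted p = 0.000853). It was also called without the third Y396E arsenite library (0.29, edgeR adjusted p = 0.00351). That library belongs to neither group compared but enters the estimate of the spread. EGFR, TGFA and SPRY2 were at -0.02 ± 0.08, -0.02 ± 0.06 and -0.15 ± 0.16. In the interaction, ERRFI1 alone was called, with an arsenite response 0.40 ± 0.05 more positive in RQ than in WT (edgeR adjusted p = 0.000161), beside 0.22% of all tested genes. AREG gave 0.45 ± 0.11 (edgeR adjusted p = 0.13), which was called with DESeq2 (adjusted p = 0.0344), with library totals alone (0.45, edgeR adjusted p = 0.0319), without the third WT control library (0.54, edgeR adjusted p = 0.0174) or without the third Y396E arsenite library (0.45, edgeR adjusted p = 0.0354).

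The pair of phosphomimetic mutants gave no called difference between each other, in any member or in any of the 9099 tested genes (0% in each treatment). In control cells the members' log2 fold changes of Y396E minus S181E lay between -0.16 ± 0.08 (AREG) and 0.01 ± 0.05 (TGFA), and at an unadjusted p under 0.05 only ERRFI1 passed (-0.09 ± 0.04). After arsenite they lay between -0.15 ± 0.08 (EGFR, edgeR adjusted p = 0.356) and 0.03 ± 0.05 (SPRY4), and none passed. DESeq2 called none of the members either. These p-values do not show that the mutants act alike.

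Ranked over the 8 groups by mean CPM, the members fell into a few patterns. RQ control and WT control stood first and second for AREG, EREG, ERRFI1, TGFA and SPRY4. Their libraries overlapped in AREG and EREG and were just apart in ERRFI1, TGFA and SPRY4. For ERRFI1 the lowest RQ and the highest WT library both rounded to 1709 CPM. S181E and Y396E arsenite stood last and overlapped for AREG, EREG, ERRFI1 and SPRY4, at 116 ± 3.7 and 115 ± 1.17 CPM for AREG (SD, n = 3) and 277 ± 3.78 and 268 ± 27.8 CPM for EREG. For TGFA the last places belonged instead to WT and RQ arsenite, which overlapped at 61.2 ± 3.89 and 60.5 ± 2.08 CPM. HBEGF set 6 groups, from RQ arsenite at 33.2 ± 2.15 CPM to WT arsenite at 27.0 ± 0.685 CPM with each neighbour overlapping, apart from S181E control at 17.2 ± 1.0 CPM and Y396E control at 16.5 ± 1.44 CPM. For EGFR the 4 arsenite groups came first and the 4 control groups followed, with overlap between neighbours in every step but that from S181E arsenite to WT arsenite. All neighbours overlapped for SPRY2.

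**Figure D4:**
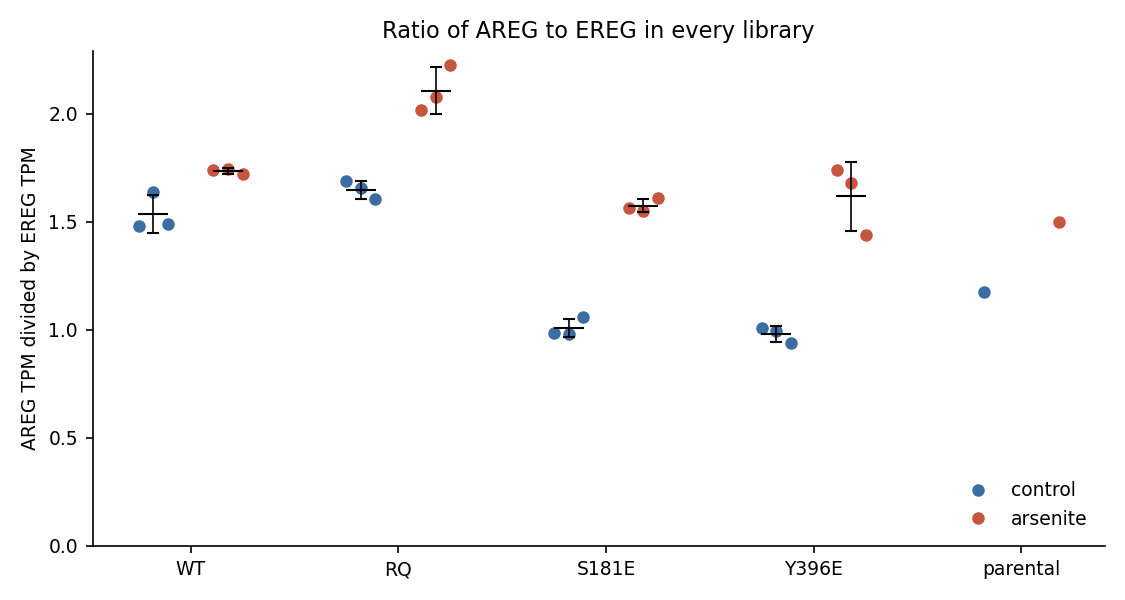
Ratio of AREG to EREG in every library, each as TPM, from 0 on the vertical axis, by population. Blue points are control and red points arsenite libraries, and the black bar and whiskers give the mean and SD of 3 libraries. The ratio is near 1.0 in S181E and Y396E control cells and between 1.44 and 2.23 in every arsenite library.

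The neighbouring genes AREG and EREG were also compared with each other. Per transcript length, AREG exceeded EREG 1.54 ± 0.087-fold in WT control and 1.65 ± 0.0423-fold in RQ control libraries (SD, n = 3), while the control ratio of S181E was 1.01 ± 0.0428 and that of Y396E 0.980 ± 0.0359. After arsenite it was 1.74 ± 0.0123 for WT and 2.11 ± 0.109 for RQ, and the mutants S181E and Y396E reached 1.57 ± 0.0311 and 1.62 ± 0.160. The log2 ratio was higher with arsenite by 0.18 for WT, by 0.35 for RQ, and by 0.64 and 0.72 for S181E and Y396E, with no overlap of libraries. An exact two-sided permutation test of 3 against 3 libraries gave p = 0.1 for each, the smallest p this design allows, and 0.125 adjusted over 10 such comparisons. S181E and Y396E control libraries were apart from WT by -0.61 and -0.65, and RQ control libraries, at 0.10, overlapped with it (exact permutation p = 0.2). The parental cells gave 1.18 in control and 1.5 with arsenite.

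The sum of the 4 ligands was 1532 ± 40.04 TPM in WT and 1515 ± 59.1 TPM in RQ control libraries (SD, n = 3), and lower at 785 ± 10.9 TPM in those of S181E and 689 ± 39.4 TPM in those of Y396E. AREG and EREG made up most of it, at 57.6% and 37.6% in WT control. TGFA took 3.52% there, 8.39% in S181E control and 9.22% in Y396E control. With arsenite the sum was 675 ± 14.6 TPM for WT, 869 ± 59.2 TPM for RQ, and 408 ± 26.3 and 390 ± 25.4 TPM for S181E and Y396E. HBEGF, 1.28% of the sum in WT control, took 3.57% in WT arsenite, 7.13% in S181E arsenite and 6.91% in Y396E arsenite libraries. Since TPM carries no TMM scaling, these sums move with the median of all genes, which in TPM was higher with arsenite by 0.52 on the log2 scale in WT and 0.21 in S181E. The ratio and the shares within a library do not depend on that scaling, and they describe transcripts and not released ligand.

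Other genes of the pathway were taken from lists of ligands, receptors, release factors, inhibitors, relay proteins and ERK output transcripts, chosen with earlier results of these data known, and 42 of the 60 passed the filter. None of the 7 other EGF family ligands did, EPGN and BTC included, which flank EREG and AREG and reached at most 0.365 and 9.92 CPM. Of the other receptors, ERBB2 and ERBB3 were tested and ERBB2 was called lower with arsenite in WT (-0.30), a call lost with library totals alone (-0.14). Without stress both were lower in S181E (-0.55 for ERBB2 and -0.50 for ERBB3) and in Y396E (-0.56 and -0.56). Over all tested genes 15.4% and 14.2% were called lower there. ERBB3 was not called with arsenite in any population and is named after its values were seen. Of 5 tested genes for ligand release, 4 were called with arsenite in WT, where 72.2% of all tested genes were called. Arsenite raised 1 of them, RHBDF2, a partner of ADAM17 (0.53). It lowered 3, the protease ADAM9 (-0.79), FRMD8 (-0.50) and ADAM17 (-0.27), and ADAM17 was not called with library totals alone (-0.11). RHBDF2 was also raised in S181E (0.74), Y396E (0.92) and RQ (0.62), and ADAM9 and FRMD8 were lowered in all 3. Against unstressed WT, RHBDF2 was at -0.50 in S181E and -0.50 in Y396E, both called lower.

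Of 8 tested inhibitors of the receptor or RAS outside the members, 5 fell with arsenite in WT and none rose, with a median of -0.53, where 35.9% of all tested genes were called lower. The largest falls were those of SPRED2 (-1.16) and SPRED1 (-1.15), relatives of the Sprouty proteins, and of SOCS4 (-1.11), and all 3 fell in every population. None of these 3 was called against WT in unstressed S181E or Y396E cells. There 2 of the 8 genes were called lower in each, beside 15.4% and 14.2% of all tested genes. They were LRIG2 and CBLC, named after their values were seen. Among 16 tested relay genes from the receptor to ERK, 8 fell and 2 rose with arsenite in WT, where 72.2% of all tested genes were called, and 5 fell and 4 rose with library totals alone. The exchange factor SOS1 (0.84) rose, as did RASA1 (0.30), a gene of this list that inactivates RAS. NRAS (-0.65), ARAF (-0.48) and HRAS (-0.47) had the largest falls. None of the 16 was called lower in unstressed S181E or Y396E cells, and 2 and 1 were called higher, or 5 and 4 with library totals alone. Over all tested genes 31.1% and 28.6% were called in either direction in the main fit.

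The 11 tested ERK output transcripts moved in both directions. With arsenite in WT, 3 rose and 6 fell, where 72.2% of all tested genes were called, and 4 fell with library totals alone. EGR1, an immediate-early transcription factor, rose by 4.41 on the log2 scale in WT and by 4.83, 4.80 and 5.01 in S181E, Y396E and RQ. ETV5 (0.44) and DUSP6 (0.37), an ERK phosphatase, also rose in WT, while IER3 (-1.47), FOSL1 (-1.22) and DUSP4 (-0.52) fell. Library totals alone gave 1 of the 11 lower and 4 higher in S181E against unstressed WT, and 2 lower and 3 higher in Y396E. In the main fit 3 were lower and 1 higher in S181E, and 3 lower and 2 higher in Y396E. Over all tested genes 31.1% and 28.6% were called in that fit. IER3 was among those lower (-0.41 and -0.45), and DUSP4, which dephosphorylates ERK, was at 0.26 (not called) and 0.31 (called higher). In RQ after arsenite, DUSP6 (0.37) and ETV5 (0.45) were the 2 of the 11 called higher than in WT. Over all tested genes 1.36% were called higher.

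Across the 24 libraries with the transgene, Pearson's r of log2 CPM was 0.93 between AREG and EREG, 0.97 between AREG and SPRY4, and 0.98 between EREG and ERRFI1. These values describe libraries that share the treatment and the population, which set most of the spread. HBEGF gave 0.28 with AREG and -0.05 with EREG, and EGFR gave -0.88 with TGFA and 0.59 with HBEGF. Over all tested genes outside the 8, the patterns most like AREG were those of TRAM1 (0.987) and GAS6 (0.986), and those most like EREG were OCLN (0.993) and NTAQ1 (0.990). HBEGF was followed by MERTK (0.909) and PLEC (0.905), TGFA by EFCAB14 (0.995) and ICMT (0.993), and EGFR by STT3A (0.953) and COL6A1 (0.952). For ERRFI1 they were PHLDA1 (0.991), which is also in the list of ERK output transcripts, and AP1AR (0.990), and for SPRY4 they were WNT16 (0.988) and OSGIN2 (0.979).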

How the data were processed

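Poly(A) RNA of 26 libraries was measured. The counts per gene were deposited by the authors, who aligned single reads to hg38 with STAR 2.7.11b and counted exons by strand with featureCounts (Subread 2.0.6) over GENCODE 46. Reads of overlapping or near-identical genes follow their counting. Symbols came from GENCODE 44 by gene identifier without its version (62541 of 63086 matched). The 8 members and all lists were chosen with earlier results of these data known. Here the 24 libraries with the transgene entered one edgeR 4.0.16 quasi-likelihood fit (R 4.3.3) of 8 group means with TMM scaling and Benjamini-Hochberg adjustment, over 9099 protein-coding genes with more than 10 CPM in at least 12 libraries. Called means an adjusted p below 0.05 and a fold above 1.2. SPRY2 failed this filter and came from a fit of 12048 genes with more than 1 CPM in at least 3 libraries. Named were the 8 members, IGF2BP1 to IGF2BP3, from each list up to 3 genes with the largest called rise and up to 3 with the largest called fall with arsenite in WT, the ligand genes beside a member, and the pair of genes most correlated with each member. TPM was computed from counts and exon lengths, without TMM. Alternatives were DESeq2 1.42.0, its size factors in edgeR, library totals, other filters, gene types and fold thresholds, the compared groups alone, the replicate number as a block, and leaving out each library. Same-numbered WT and RQ libraries deviated together (r = 0.291 to 0.525 in control, 0.147 to 0.15 with arsenite), so these numbers pair the libraries by correlation alone, since the labels give no shared origin. The block changed no call of a member between RQ and WT. The fit was tested on simulated data.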

Additional observations from a re-analysis of the deposited data

Results flagged for a closer look

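The arsenite response of 4 ligands and of ERRFI1 differed from that of WT in at least 1 mutant by the edgeR interaction test. Over all tested genes this test called 16.4% in S181E, 21.5% in Y396E and 0.22% in RQ. For HBEGF the response was more positive by 1.07 ± 0.12 on the log2 scale (SE) in S181E (edgeR adjusted p = 4.52e-06) and by 1.05 ± 0.12 in Y396E (edgeR adjusted p = 5.06e-06), where the gene rose in all 3 arsenite libraries of each mutant above all 3 control libraries, and in WT the arsenite libraries lay below the controls in CPM and above them in TPM, which has no TMM scaling. AREG fell less in S181E, by a difference of 0.71 ± 0.11 (edgeR adjusted p = 0.000191), and in Y396E, by 0.86 ± 0.11 (edgeR adjusted p = 1.59e-05). TGFA gave 0.34 ± 0.08 in S181E (edgeR adjusted p = 0.00521) and 0.34 ± 0.08 in Y396E (edgeR adjusted p = 0.00327). EREG gave 0.32 ± 0.10 in Y396E (edgeR adjusted p = 0.0205), and ERRFI1 gave 0.40 ± 0.05 in RQ (edgeR adjusted p = 0.000161). The WT libraries are shared by all of these comparisons. The share of counts from the mitochondrial genome and the level of IGF2BP1 also differed between these groups, and with scaling by library totals alone the differences were 0.95 and 0.95 for HBEGF and 0.59 and 0.75 for AREG, in S181E and Y396E. Under that scaling TGFA, at 0.23 and 0.24, and EREG in Y396E, at 0.21 (edgeR adjusted p = 0.0696), were no longer called. The part of the IGF2BP1 level was not tested.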

How the results depend on the processing

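Over 8 members and 15 comparisons, 104 of 120 pairs of a member and a comparison kept their side of the threshold under every alternative fit at the same fold threshold, and 0 changed sign as a called value. With TPM and no TMM, a scaling added after seeing the data and without a test, SPRY4 with arsenite in RQ was at 0.03. The counts that follow show only how the calls of members depend on each setting. Shares of all tested genes under these settings are not given, so the counts are not set against a background. With a fold above 2 the number of members called was 4 of 7 for arsenite in WT, 3 in S181E, Y396E and RQ, 2 in S181E and Y396E against WT in control, 0 in S181E, 1 in Y396E and 0 in RQ against WT after arsenite, and 1, 1 and 0 for the differences of response in S181E, Y396E and RQ. Library totals alone gave 2 for RQ against WT after arsenite and 2 for the differences of response in Y396E and in RQ, DESeq2 gave 2 for the last of these, and no filter on level gave 2 for RQ after arsenite. Without single libraries, each of the 24 left out once, the numbers were 6 to 6, 7 to 7, 7 to 7 and 5 to 6 for arsenite in WT, S181E, Y396E and RQ. It gave 5 to 5, 5 to 5 and 0 to 0 for S181E, Y396E and RQ against WT in control and 4 to 5, 4 to 5 and 2 to 5 after arsenite. The differences of response ran from 3 to 4, 3 to 4 and 1 to 2. For 26 of 28 pairs of groups the replicate numbers did not pair the libraries by the rule used, that the correlation of deviations is over 0.1 for every number, although 23 of 24 libraries correlated best with their own number. They did for WT with RQ in each treatment. With the replicate number as a block, TGFA in Y396E against WT after arsenite became called (0.26, edgeR adjusted p = 0.000617), which made 5 members in place of 4, and no other call of a member changed. SPRY2 had 122 to 422 counts a library. The cause of these changes was not tested.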
